A study of Mus musculus with 4 samples.

Results

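De novo fatty acid synthesis was followed through 10 genes in the liver of mice that lack Ilrun and of wild-type mice. The genes are Fasn, Acaca, Acacb, Acly, Acss2, Me1, Srebf1, Mlxipl, Thrsp and Slc25a1, chosen by name, and 18 probes of the array carry one of these symbols. All 10 were among the 31709 genes on the array and among the 19655 genes tested. Their 18 probes were well above background in all 8 channels, so no member passed the filter on dim probes through a single genotype.

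The study compared male C57BL/6 mice of genotype IlrunKO, which lack Ilrun throughout the body, with male WT mice. Livers came from chow-fed animals after a fast of 4 h, with 4 liver samples of each genotype. Each of 4 two-colour arrays held 1 IlrunKO and 1 WT liver, and the dyes were swapped: arrays 1 and 2 had IlrunKO in Cy5 (red), arrays 3 and 4 in Cy3 (green). The labels call the replicates biological. They do not state age, the deleted part of Ilrun or whether mice were pooled, so p-values rest on these samples and may not measure the spread between single mice. The word mouse, with its number, stands below for 1 such sample. A level below is a log2 channel signal, on a scale set for each probe, and a ratio is the log2 ratio of IlrunKO over WT on 1 array. Levels of different probes cannot be set against each other. The fitted ratio weighs the pairs of arrays of each dye orientation equally, and the words rose and fell are kept for an adjusted p under 0.05 in limma. An SD is the spread of the array ratios, including any difference between the dye orientations. Intervals and p-values come from the limma fit, which takes that difference out and moderates the variance over all genes.

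The liver makes fatty acids from acetyl-CoA in the cytosol. Citrate leaves the mitochondrion and is split to acetyl-CoA, acetyl-CoA is carboxylated to malonyl-CoA, and fatty acid synthase extends the chain with NADPH as reductant. Insulin drives these genes through the transcription factor SREBP1c, encoded by Srebf1, and sugar drives them through ChREBP, encoded by Mlxipl. The pathway runs high in fed liver and falls with fasting.

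The stretch before the start site of 3 members is shown because Fasn was the only member to pass the test, and Acly and Slc25a1, neighbours on the citrate route, had ratios on opposite sides of 0. Slc25a1 exports citrate, Acly splits it and Fasn builds the fatty acid from it. Each line gives the 250 bases before a start site in RefSeq (GRCm38.p6), 5′ to 3′ on the strand of the gene. The regions are chr11:120824548-120824797 (minus strand) for Fasn, chr11:100528001-100528250 (minus strand) for Acly and chr16:17928220-17928469 (minus strand) for Slc25a1. Capitals mark CCAAT (the NF-Y box), GGGCGG (the GC box) and CACGTG (the E-box bound by SREBP, USF and ChREBP) on either strand.
Fasn: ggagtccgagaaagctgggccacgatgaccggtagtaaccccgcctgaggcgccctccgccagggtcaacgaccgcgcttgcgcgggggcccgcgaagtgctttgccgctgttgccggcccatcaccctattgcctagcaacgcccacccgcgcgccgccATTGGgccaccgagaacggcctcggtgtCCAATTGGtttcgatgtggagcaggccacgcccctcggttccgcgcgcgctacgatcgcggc
Acly: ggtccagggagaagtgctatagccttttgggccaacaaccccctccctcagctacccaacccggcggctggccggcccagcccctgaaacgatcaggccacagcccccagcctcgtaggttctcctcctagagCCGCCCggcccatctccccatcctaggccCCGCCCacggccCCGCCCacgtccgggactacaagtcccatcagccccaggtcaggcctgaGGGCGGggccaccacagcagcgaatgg
Slc25a1: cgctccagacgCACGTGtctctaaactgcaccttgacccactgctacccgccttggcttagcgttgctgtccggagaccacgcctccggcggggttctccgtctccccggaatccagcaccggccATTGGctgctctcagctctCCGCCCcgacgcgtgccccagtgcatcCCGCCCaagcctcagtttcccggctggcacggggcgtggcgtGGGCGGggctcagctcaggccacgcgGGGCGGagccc

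The Fasn stretch held 3 CCAAT boxes, the nearest 55 to 59 bases before the start and overlapping its neighbour at 58 to 62, and it held no GC box or E-box in these letters. Acly held 4 GC boxes and no CCAAT box. Slc25a1 held 1 CCAAT box, 4 GC boxes and an E-box 234 to 239 bases before the start. Over the 14 RefSeq start sites of the 10 members, 9 windows held CCAAT, 7 held GGGCGG, 2 held CACGTG and 1, at Mlxipl, held the sterol response element TCACNCCAC. Among 32851 windows of the same length, 33.8% held CCAAT, 32.7% GGGCGG, 6.02% CACGTG and 1.05% TCACNCCAC. These matches describe the letters in the window and show no binding.

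As a check of the labels, Ilrun levels ran from 7.76 to 7.99 in the IlrunKO channels and from 12.0 to 12.3 in the WT channels. All 12 hepatocyte markers listed passed the filter on dim probes. At most 67.3% of probes were well above background in a channel, and no member spot was saturated.

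Of the 10 members, 1 fell (Fasn), none rose and 9 did not pass. Over all genes tested 0.656% fell and 0.717% rose, so that 1.37% changed. Fitted ratios ran from -0.78 for Me1 to 0.14 for Slc25a1, with a median of -0.25 against -0.0014 over all genes. Ratios lay below 0 for 8 members, where 50.6% of all genes did, and 4 members were below 0 on all 4 arrays, where 11.5% of all genes were. Me1 is among these 4 with a ratio of -0.0022 on array 1. With no adjustment, 7 members had a limma p under 0.05 with a ratio below 0, against 9.87% of all genes, and no member had one above 0, against 10.6% (20.5% in either direction). The members were picked with earlier results of these data known and act in 1 pathway, so these counts describe the list and no test was made of it. The median over the members was -0.11, -0.19, -0.53 and -0.31 on arrays 1 to 4. Of 12 hepatocyte markers, 11 lay below 0 with a median of -0.22, and 8 had an unadjusted p under 0.05 below 0, though none passed. On all 4 arrays, 3 of them were below 0 and 1 (Asgr1) was above 0. The hepatocyte medians on arrays 1 to 4 were -0.11, 0.01, -0.34 and -0.39, and the median over all genes on array 2 was also 0.01. Stellate cell markers also lay below 0, 8 of 8 with a median of -0.31, of which 7 had an unadjusted p under 0.05 and none passed. Macrophage and adipocyte markers did not: 8 of 9 macrophage markers lay above 0 (median 0.36), as did 6 of 7 adipocyte markers tested (median 0.69). Of 7 endothelial markers, 6 lay below 0 with a median of -0.04, and 2 had an unadjusted limma p under 0.05 below 0. Of 4 cholangiocyte markers tested, 2 lay below 0 and 2 above, with a median of -0.04. The part of any marker list in the members' ratios was not tested.

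**Figure D1:**
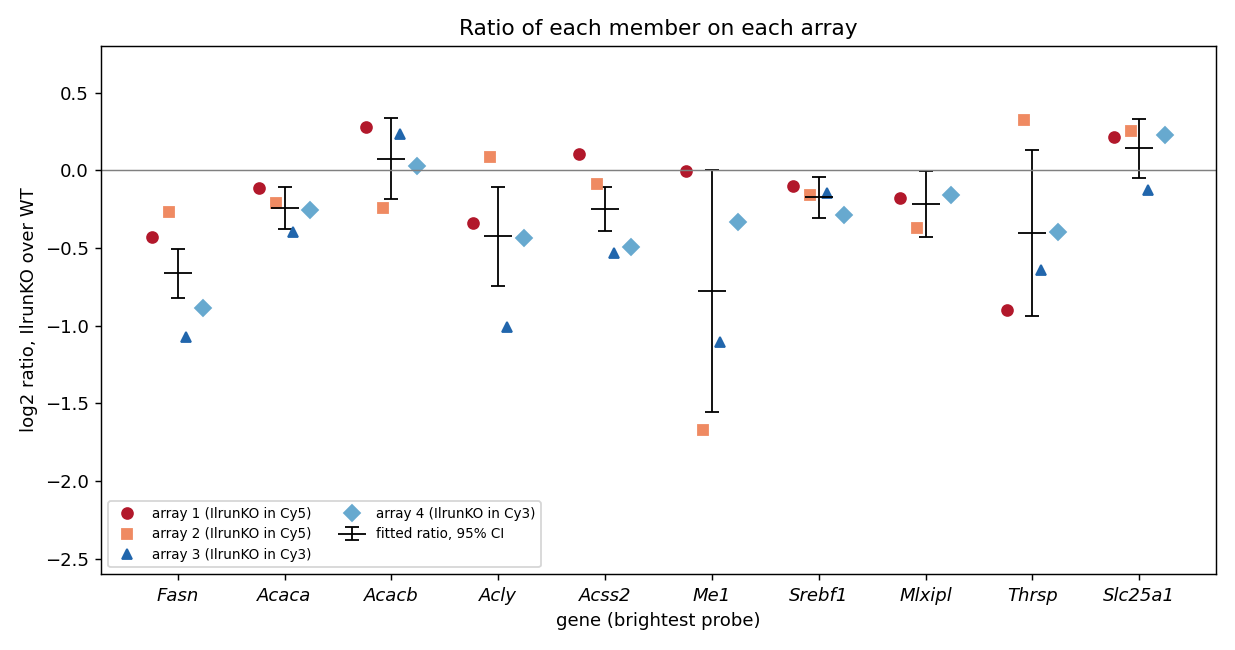
The log2 ratio of IlrunKO over WT is plotted for the brightest probe of each gene on each of the 4 arrays, with the fitted ratio as a bar and its 95% confidence interval. Fasn lies below 0 on every array and its interval ends at -0.51, while the intervals of Acacb, Thrsp and Slc25a1 cross 0.

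Fasn encodes fatty acid synthase, the enzyme that assembles palmitate. Its levels were 8.05, 8.10, 7.79 and 7.93 in IlrunKO mice 1 to 4 and 8.49, 8.37, 8.86 and 8.81 in WT mice 1 to 4. Every IlrunKO mouse lay below every WT mouse. Levels of this kind, with the genotypes apart and IlrunKO lower, were seen in 4.22% of all genes and in 2 of the 10 members, the other being Mlxipl with 3 mice a genotype. No member had the genotypes apart with IlrunKO higher, as 4.75% of all genes did. Ratios of Fasn were -0.43, -0.27, -1.08 and -0.88 on arrays 1 to 4, and Fasn fell 1.58-fold (-0.66 ± 0.38, SD, n = 4; 95% confidence interval -0.82 to -0.51; limma adjusted p = 0.0346). Of all genes tested, 0.544% had a lower ratio, and Fasn stood at rank 65 by p. Its single probe lies on chromosome 11 at 120667666 to 120667725 of mm9, and it was among the dimmer ones, with 149 to 599 intensity units above local background. The offset of 50 units added to the signal drew the Fasn ratio toward 0, and with no offset it read -0.79.

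The 4 ratios of Fasn split by dye orientation. Their mean was -0.35 with IlrunKO in Cy5 and -0.98 with IlrunKO in Cy3, and the dye term of the fit stood at 0.32 (unadjusted p = 0.00372, adjusted p = 0.128). An effect of the dye and a difference between those pairs of mice cannot be told apart here. Without the dye term, where 0.427% of all genes fell, Fasn did not pass (adjusted p = 0.114). It also did not pass without array 3 (-0.62, adjusted p = 0.157) or without array 4 (-0.71, adjusted p = 0.124), with Agilent processed signals (adjusted p = 0.0605) or with median centring (adjusted p = 0.222). The hepatocyte medians given above were also lower on arrays 3 and 4, but single markers differed. Alb had a dye term of 0.73 and Hnf4a one of -0.28 (limma unadjusted p = 0.000156 and 0.00301, adjusted p = 0.0821 and 0.123). Dye terms of Apoa1, Trf, Ttr, Asgr1, Serpina1a, Apob and Fgb had the sign of Alb, and those of Asgr2, Cps1 and Tat the sign of Hnf4a. In bulk liver RNA, fewer cells of a type and less RNA per cell cannot be told apart.

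**Figure D2:**
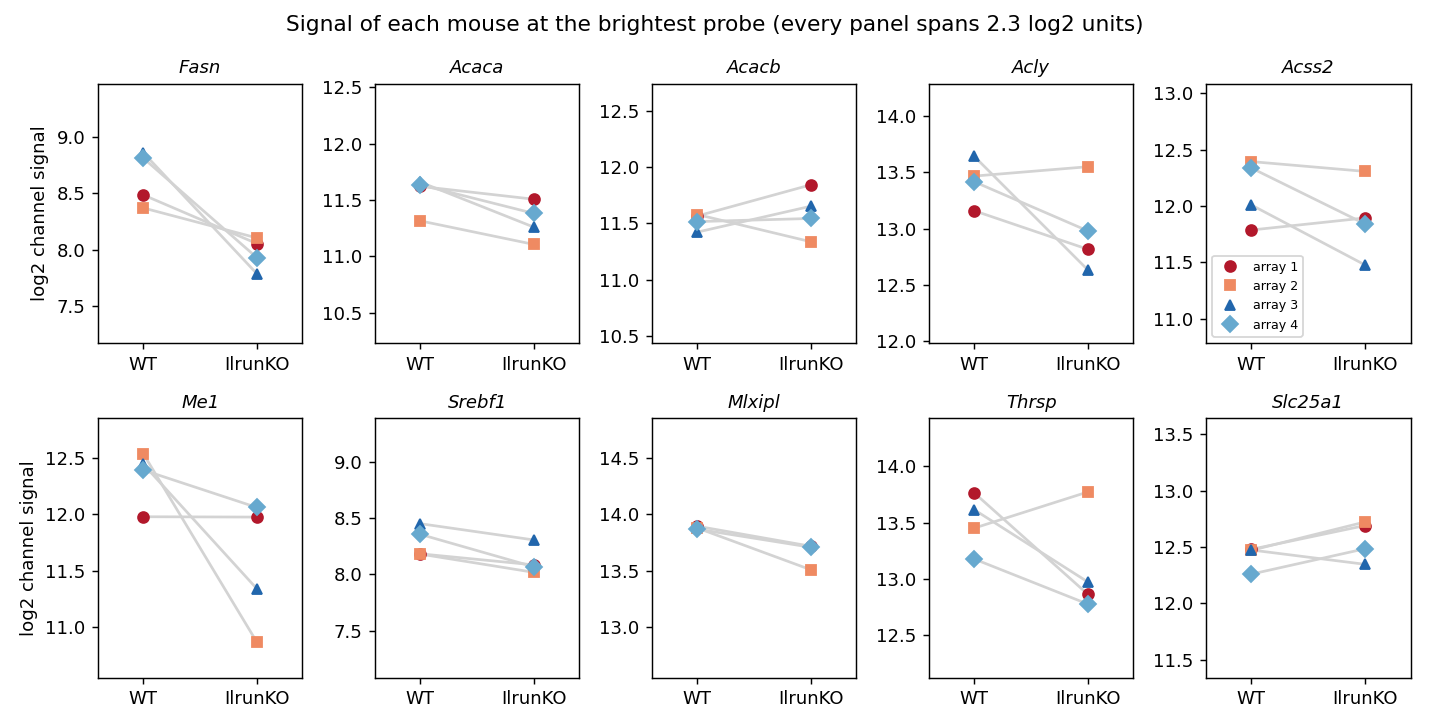
Each panel plots the log2 channel signal of the 4 WT and 4 IlrunKO mice at the brightest probe of 1 gene, with a line joining the pair hybridised to the same array. All 4 lines of Fasn point down and its genotypes do not overlap, whereas Acacb and Thrsp have lines in both directions and genotypes that overlap.

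For the supply of cytosolic acetyl-CoA, the transcripts of 3 members were measured. Acly, which splits citrate to acetyl-CoA, had levels of 12.8, 13.5, 12.6 and 13.0 in IlrunKO mice and 13.2, 13.5, 13.6 and 13.4 in WT mice. IlrunKO mouse 2 reached the WT range and the other 3 lay below it. Its ratio was -0.43 ± 0.45 (SD, n = 4; adjusted p = 0.162), with array values of -0.34, 0.08, -1.01 and -0.44. That is an estimate 1.34-fold below WT with an interval from -0.74 to -0.11, and it did not pass.

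Acss2 makes acetyl-CoA from acetate and is a known SREBP target. Its levels were 11.9, 12.3, 11.5 and 11.8 in IlrunKO mice and 11.8, 12.4, 12.0 and 12.3 in WT mice, and the genotypes overlapped. Ratios of 0.11 and -0.09 on arrays 1 and 2 stood against -0.53 and -0.50 on arrays 3 and 4, a split by dye orientation like that of Fasn (dye term 0.26, unadjusted p = 0.00536, adjusted p = 0.138). The fitted ratio was -0.25 ± 0.31 (SD, n = 4; adjusted p = 0.103). No gene had a dye term with an adjusted p under 0.05, and 18.3% had one with an unadjusted p under 0.05.

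Slc25a1, the mitochondrial citrate exporter, had the highest fitted ratio of the members. Levels were 12.7, 12.7, 12.3 and 12.5 in IlrunKO mice and 12.5, 12.5, 12.5 and 12.3 in WT mice, with overlap. Ratios were 0.21, 0.25, -0.13 and 0.23, and the fitted ratio was 0.14 ± 0.18 (SD, n = 4; interval -0.05 to 0.33; adjusted p = 0.357). Whether Slc25a1 and Acly differed from each other in their ratios was not tested.

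Acetyl-CoA carboxylase makes malonyl-CoA, the committed step. Acaca encodes the cytosolic enzyme that feeds synthesis, and Acacb encodes the form at the mitochondrial surface whose malonyl-CoA restrains fatty acid oxidation. At the brightest Acaca probe, IlrunKO mice had levels of 11.5, 11.1, 11.3 and 11.4 and WT mice 11.6, 11.3, 11.7 and 11.6. Within every array the IlrunKO mouse was lower, but the genotypes overlapped because WT mouse 2 lay below IlrunKO mice 1 and 4. The ratio was -0.24 ± 0.12 (SD, n = 4; interval -0.38 to -0.11), and it did not pass (adjusted p = 0.102).

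Acacb had levels of 11.8, 11.3, 11.7 and 11.5 in IlrunKO mice and 11.6, 11.6, 11.4 and 11.5 in WT mice. Its ratios were 0.28, -0.24, 0.23 and 0.03, on both sides of 0, and the fitted ratio was 0.07 ± 0.24 (SD, n = 4; interval -0.19 to 0.33; adjusted p = 0.742). The interval holds 0 and does not show that the genotypes were alike.

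Me1, the cytosolic malic enzyme, supplies NADPH for the synthase. It had the lowest fitted ratio and the widest spread of the members. Levels were 12.0, 10.9, 11.3 and 12.1 in IlrunKO mice and 12.0, 12.5, 12.4 and 12.4 in WT mice. IlrunKO mice 2 and 3 lay well below the rest, and WT mouse 1 was the lowest of its genotype, level with the IlrunKO mouse on the same array. The ratios were thus -0.0022, -1.67, -1.11 and -0.33, and the fitted ratio was -0.78 ± 0.75 (SD, n = 4; interval -1.56 to -0.00029; adjusted p = 0.244). Without array 1 it stood at -1.20 and passed (adjusted p = 0.0477), and without array 2 it stood at -0.36 and did not (adjusted p = 0.390). Only 0.356% of all genes had a lower fitted ratio.

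The 3 regulators followed. Srebf1 encodes SREBP1, the insulin-responsive activator of the synthesis genes. Its levels were 8.08, 8.02, 8.31 and 8.07 in IlrunKO mice and 8.18, 8.18, 8.45 and 8.36 in WT mice. Within each array the IlrunKO mouse was the lower, by small steps: ratios were -0.10, -0.16, -0.14 and -0.29, with the smallest SD of the 10 members. The fitted ratio of -0.17 ± 0.08 (SD, n = 4; interval -0.31 to -0.04) did not pass (adjusted p = 0.166). Which of the 1a and 1c transcripts the single Srebf1 probe detects was not examined.

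Mlxipl encodes ChREBP, the sugar-responsive activator. The spot on array 3 was marked as an outlier by the scanner software and left out, so its values rest on 3 arrays. Levels were 13.7, 13.5 and 13.7 in IlrunKO mice 1, 2 and 4 and 13.9, 13.9 and 13.9 in WT mice, without overlap. Ratios were -0.18, -0.37 and -0.16, and the fitted ratio was -0.22 ± 0.12 (SD, n = 3; interval -0.43 to -0.0077; adjusted p = 0.234). With the marked spot kept, array 3 read -0.30.

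Thrsp encodes Spot 14, a small protein that raises lipogenic output and whose transcript responds to thyroid hormone and sugar. Levels were 12.9, 13.8, 13.0 and 12.8 in IlrunKO mice and 13.8, 13.5, 13.6 and 13.2 in WT mice. IlrunKO mouse 2 stood at the top of all 8 and the other 3 at the bottom. Ratios were -0.90, 0.32, -0.64 and -0.40, and the fitted ratio was -0.41 ± 0.53 (SD, n = 4; interval -0.94 to 0.13; adjusted p = 0.351). Without array 2 it was -0.71 and passed (adjusted p = 0.0397), and without array 1 it was -0.10 and did not (adjusted p = 0.616).

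Of the members, 5 have several probes, 13 in all, and each probe was fitted over all 24353 probes kept, of which 0.698% fell and 0.817% rose (1.52% together). None of the 13 passed. Acaca has 4 probes over 206133 bases of chromosome 11 (mm9). The pair at 84215093 to 84215152 and 84215094 to 84215153 overlap by nearly all their length and read -0.24 and -0.26 (adjusted p = 0.0983 and 0.0957). The others, at 84211638 to 84211697 and 84009021 to 84009080, read -0.05 and -0.06 (adjusted p = 0.754 and 0.580). These dimmer probes had at most 53.4 and 103 intensity units above background, against at least 1720 and 1610 for the bright pair. With no offset added to the signal they read -0.08 and -0.12, so the offset of 50 units drew their ratios toward 0.

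The same was seen at Acly, where the dim probe at 100365518 to 100365577 of chromosome 11 read -0.10 (adjusted p = 0.347) and -0.22 without the offset, against -0.43 at the bright probe. The bright Acly probe lies at 100337674 to 100337733. The dim Acacb probe read 0.08 (adjusted p = 0.386) and the other Acss2 probe -0.11 (adjusted p = 0.445), each on the same side of 0 as the bright probe of its gene. That Acss2 probe had 327 to 1230 intensity units above background and read -0.12 without the offset. Its ratios were 0.41, 0.07, -0.53 and -0.41 on arrays 1 to 4, and its interval of -0.30 to 0.07 holds 0. Me1 was alike at its 3 probes, which span 5554 bases of chromosome 9 from 86475077 to 86480630. They read -0.78, -0.81 and -1.03 (adjusted p = 0.238, 0.229 and 0.196), and at each of them array 2 gave the lowest ratio and array 1 the one nearest 0. On array 1 they read -0.0022, -0.03 and 0.08 in the same order, so the sign differed between probes there. The brightest Acacb and Acss2 probes lie at chr5:114700702-114700761 and chr2:155388416-155388475 of mm9. The single probes of Srebf1, Mlxipl, Thrsp and Slc25a1 lie at chr11:60012664-60012723, chr5:135613705-135613764, chr7:104561649-104561708 and chr16:17925661-17925720. Their exons and UTRs were not annotated here. Probes of 1 gene share the same mice, so their agreement adds no replicate.

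**Figure D3:**
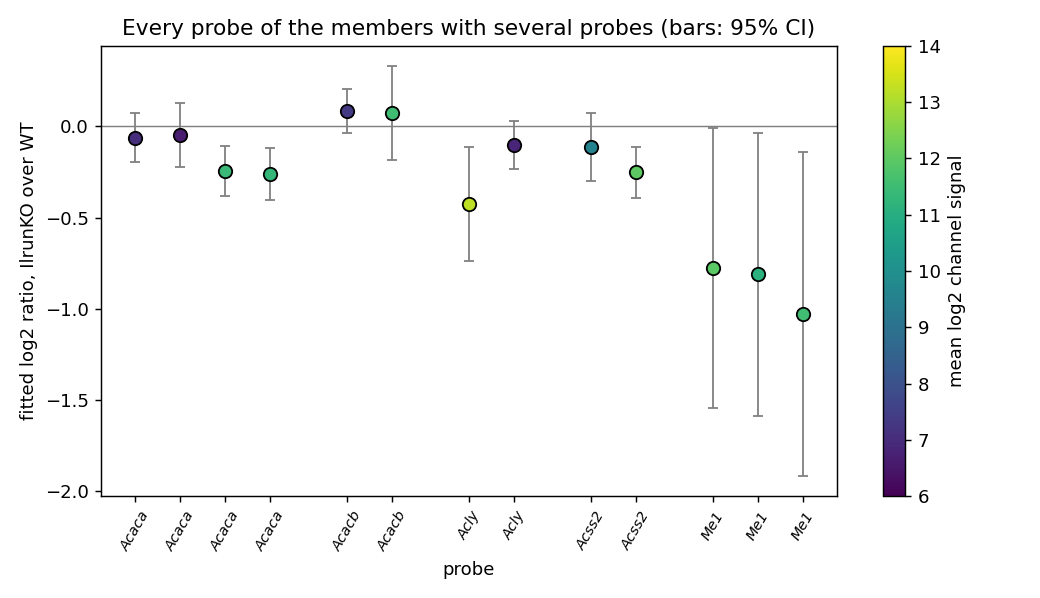
Fitted log2 ratios of IlrunKO over WT are plotted for all 13 probes of the 5 members with several probes, ordered by position, with 95% confidence intervals and coloured by mean log2 signal. The bright Acaca and Acly probes lie farther below 0 than their dim ones, and the 3 Me1 probes lie close together with wide intervals.

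Other genes of the pathway were read from 9 lists. After palmitate, the desaturases, elongases and acyl-CoA enzymes had 1 gene that fell among 14 tested of 15 listed, the fatty acid desaturase gene Fads1 (-0.84 ± 0.44, SD, n = 4; adjusted p = 0.0461). The call was lost, with ratios of -0.84, -0.84 and -0.85, when the dye term, array 3 or array 4 was left out (adjusted p = 0.0917, 0.204 and 0.162). It was also lost with Agilent processed signals and with median centring, at -0.85 and -0.96 (adjusted p = 0.0682 and 0.217). The median of that list was -0.34, with 12 of 14 below 0 and 8 with an unadjusted p under 0.05 below 0, against 9.87% of all genes.

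Upstream of acetyl-CoA, all 7 genes of glycolysis and fructose entry lay below 0 with a median of -0.26, and none passed in limma (5 had an unadjusted p under 0.05, all below 0). Pklr, which encodes liver pyruvate kinase, had a ratio of -0.39 (adjusted p = 0.0705) and the phosphofructokinase gene Pfkl one of -0.31 (adjusted p = 0.0918). Among 9 genes of mitochondrial citrate and pyruvate supply, 4 lay below 0 and 5 above, and none passed (5 had an unadjusted p under 0.05). The mitochondrial pyruvate carrier gene Mpc2 stood at -0.38 (adjusted p = 0.0736).

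Of 5 other genes of NADPH supply, none passed (2 had an unadjusted p under 0.05, both above 0). G6pdx and Pgd, the dehydrogenases of the pentose phosphate pathway, stood at 0.14 and 0.20 (adjusted p = 0.216 and 0.235), on the other side of 0 from Me1. The difference from Me1 was not tested.

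The genes that control SREBP1c were centred on 0. Of 12 tested, 6 lay on each side, the median was 0.0027 and none passed (2 had an unadjusted p under 0.05). Usf1, a partner at E-boxes of lipogenic promoters, stood at 0.16 (adjusted p = 0.166), and Fbxw7, which targets nuclear SREBP for degradation, at -0.12 (adjusted p = 0.226). The 4 partners of ChREBP had a median of -0.04 and none passed (0 had an unadjusted p under 0.05); its dimer partner Mlx stood at 0.11 (adjusted p = 0.482) and the related factor gene Mlxip at -0.08 (adjusted p = 0.599).

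Among 13 genes of insulin signalling toward SREBP1c, 10 lay below 0, the median was -0.12 and none passed (5 had an unadjusted p under 0.05, all below 0). Irs1, an adaptor of the insulin receptor, stood at -0.62 ± 0.39 (SD, n = 4; adjusted p = 0.0784), and Tsc1, a brake on mTORC1, at -0.25 (adjusted p = 0.0906). Of 11 genes of acetyl-CoA carboxylase control tested of 12 listed, none passed (3 had an unadjusted p under 0.05), with a median of -0.0037. The pseudokinase gene Trib3 stood at 0.88 ± 0.37 (SD, n = 4; adjusted p = 0.0545), and Stk11, which encodes the kinase that activates AMPK, at -0.14 (adjusted p = 0.184).

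The mitochondrial route of fatty acid synthesis, which serves lipoate and protein assembly rather than fat storage, had 6 genes tested of 7 listed. Its median was 0.20, on the other side of 0 from the cytosolic members, with 4 above 0, and none passed (3 had an unadjusted p under 0.05, all above 0). Acsf3, a malonyl-CoA synthetase, stood at 0.32 (adjusted p = 0.0788) and Mcat, the malonyl transferase, at 0.28 (adjusted p = 0.112).

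**Figure D4:**
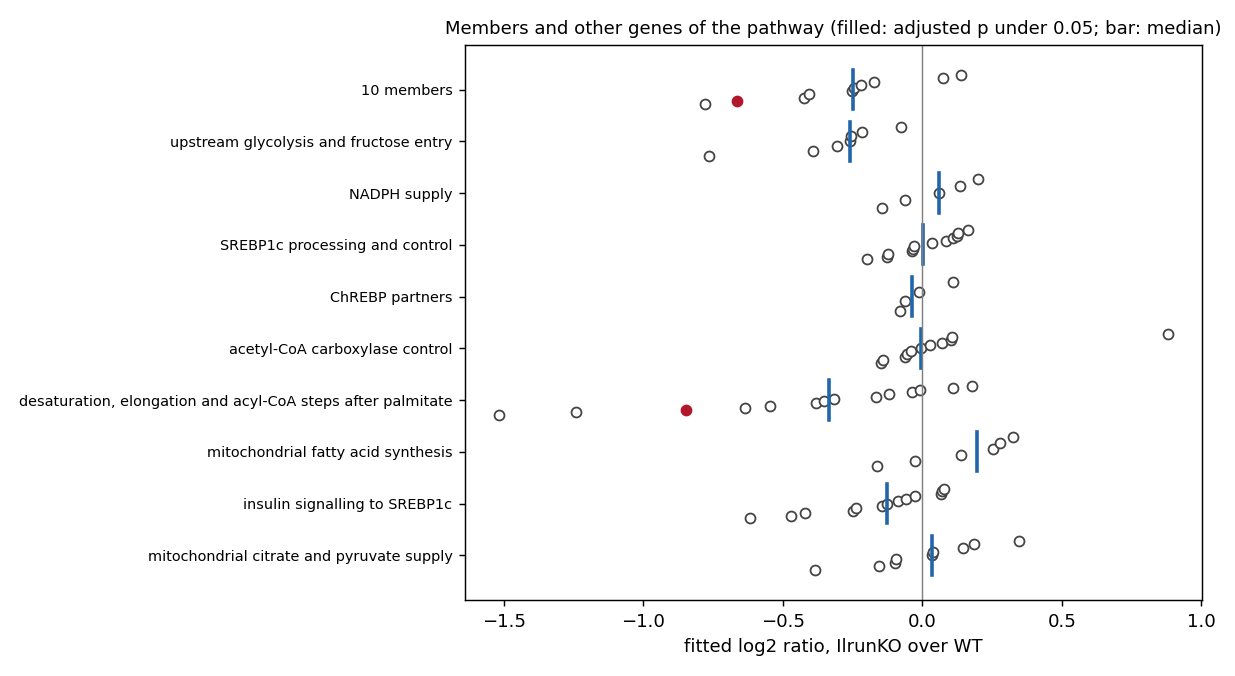
Fitted log2 ratios of IlrunKO over WT are plotted for the 10 members and for the tested genes of 9 other lists of the pathway, 1 point a gene, with filled points for genes with an adjusted p under 0.05 and a bar at the median. Fasn and Fads1 are the filled points, and medians run from -0.34 for the steps after palmitate to 0.20 for mitochondrial synthesis.

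Markers of other cell types were read beside these genes, since fat cells also make fatty acids. The summed level of 10 adipocyte markers ran from 16.6 to 17.2 in IlrunKO channels and from 15.4 to 16.5 in WT channels. Most of that sum is the signal of Car3, with mean levels of 16.94 in IlrunKO and 16.03 in WT mice, which did not pass (adjusted p = 0.158). The sum thus reads mainly 1 gene and does not by itself measure fat cells. Cfd rose (3.82 ± 1.22, SD, n = 4; adjusted p = 0.0467) and Adrb3 rose (1.04 ± 0.34, SD, n = 4; adjusted p = 0.0301), and the other 5 tested did not pass. Of these 5, Car3, Pparg, Lipe and Retn lay above 0 (0.92, 0.69, 0.21 and 0.14) and Fabp4 below (-0.11). The defining fat cell genes Adipoq, Plin1 and Lep were not well above background in any of the 8 channels. Summed levels in IlrunKO and WT channels were 19.43 to 20.05 and 19.79 to 20.17 for 12 hepatocyte markers, 13.8 to 14.3 and 14.3 to 14.5 for 8 stellate cell markers, and 14.5 to 15.2 and 14.2 to 14.8 for 9 macrophage markers. They were 14.3 to 14.5 and 14.3 to 14.6 for 7 endothelial markers, and 9.31 to 9.68 and 9.30 to 9.66 for 5 cholangiocyte markers, of which Epcam was not well above background in any channel. Most of the stellate cell sum is the signal of Dcn, with mean levels of 13.77 in IlrunKO and 14.05 in WT mice. Dcn did not pass (limma adjusted p = 0.217), and that sum does not by itself measure stellate cells. The part of these cell types in the members' ratios was not tested.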

How the data were processed

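The labels gave each channel's genotype and dye, and 500 ng of total RNA per sample was labelled. The deposited scanner files hold raw and processed intensity. Their log10 ratio, Cy5 against Cy3, comes per the file headers from Agilent Feature Extraction 10.10.1.1. A deposited table holds log2 ratios of IlrunKO over WT, a direction checked here against the scanner ratio (across spots well above background, r = 0.956, 0.943, -0.942 and -0.951 on arrays 1 to 4). The medians of its columns were -0.039, -0.043, 0.038 and 0.035. Its tool is limma per the submitters' processing notes, and its settings and centring were not stated there.

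Here limma 3.58.1 (R 4.3.3) started again from raw intensity: normexp background correction (offset 50), within-array loess (weight 0 for 1377 control spots), outlier spots left out, and spots of a probe averaged. The brightest probe stood for each gene, kept where well above background in at least 3 of 4 channels of a genotype. Each gene was fitted with a genotype and a dye term (2 residual degrees of freedom, prior 2.83), two-sided, with Benjamini-Hochberg adjustment over 19655 genes. Channel levels were loess and Aquantile normalised. The precision is limited by 4 arrays (median standard error 0.0567). Promoter sequences are from RefSeq. The fit was run on simulated data with changes larger than any member's ratio, so that run does not show how well ratios of the members' size are found.

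All 10 members were named whatever their result, and from each other list the genes that passed or else the 2 with the smallest p, except for a result that is not reported here. Members, lists and markers were chosen with earlier results of these data known. Alternatives changed the dye term, background correction, normalisation, filter, probe rule, variance model, weights, arrays and threshold.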

Additional observations from a re-analysis of the deposited data

Results flagged for a closer look

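Among 51 sets of 4 values (the ratios over arrays and the levels within a genotype, for each probe of the members), 7 held a value far from the other 3 by Dixon's test at its 95% critical value. Chance flags about 1 in 20 such sets, and probes of 1 gene share their mice. WT mouse 2 was low for Acaca, at 11.31 on the log2 scale against 11.6 to 11.7 at the brightest probe, and at 6.489 against 6.68 to 6.71 at a dim probe. The dim Acacb probe read 7.179 in IlrunKO mouse 2 against 7.47 to 7.48, and 7.484 in WT mouse 1 against 7.24 to 7.28. The dim Acly probe read 6.653 in IlrunKO mouse 1 against 6.79 to 6.81. Slc25a1 had a ratio of -0.1267 on array 3 against 0.21 to 0.25 on the others, and a level of 12.26 in WT mouse 4 against 12.5 in each of the other WT mice. None of these sets belongs to Fasn, Me1, Srebf1 or Thrsp.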

How the results depend on the processing

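The 10 members were refitted under 18 alternative settings, of which keeping the spots marked as outliers was chosen after the data were seen. Fasn stayed below 0 in all 18, from -0.87 to -0.62, and passed in 13 (adjusted p 0.000496 to 0.222). The number of members called was 1 in the reported fit and 0 without the dye term, with Agilent processed signals and with median centring, 2 (Fasn and Acaca) with separate channels, and 0 to 2 when 1 array was left out (0 without array 3 or 4; 2 without array 1 or 2, where Me1 or Thrsp joined Fasn). The number of genes called was 270 in the reported fit, 442 with no background correction, 80 with Agilent processed signals, 450 with the deposited values, 1 with median centring, 2487 with separate channels, 1119 at an adjusted p under 0.1, and 1 to 464 with 1 array left out (464 without array 1, 1 without array 3 and 1 without array 4). The gene that passed with median centring was lower, so none was higher, against 52.2% of calls in the reported fit. The causes of these differences were not tested. Leaving out an array keeps 1 residual degree of freedom, and the array alone in its orientation is assumed to vary like the others; Mlxipl could not be fitted without arrays 1, 2 or 4, or with separate channels. The median of the members ran from -0.37 to -0.20 over the settings, and Acacb was the only member whose sign changed (-0.06 to 0.20). No paired analysis beyond the array was possible because each ratio already compares the pair of mice on 1 array. The lowest signals over background were those of the dim Acaca and Acly probes.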

Other observations

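Genes picked after their values were seen showed how mice differed along the pathway. Scd1, the stearoyl-CoA desaturase, had levels of 14.3, 13.3, 13.3 and 13.4 in IlrunKO mice and 14.5, 15.4, 15.1 and 15.4 in WT mice, so that every IlrunKO mouse lay below every WT mouse. The same was seen in 4.22% of all genes and in 6 of the 14 genes tested after palmitate. The ratio of Scd1 was -1.52 ± 0.89 (SD, n = 4) and did not pass in limma (adjusted p = 0.0992), with -0.21 on array 1 and -1.77 to -2.16 on the others. The elongase gene Elovl5 stood at 0.29 on array 1 and at -0.82 to -1.10 on the others, and the elongase gene Elovl3 at -0.49 on array 1 and -0.76 to -1.98 on the others. Me1 had the same order, nearest 0 on array 1. For all 4 of these genes, WT mouse 1, on array 1, had the lowest level of the WT mice.

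Thrsp and Elovl6 went another way, with their lowest ratios on array 1 (-0.90 and -0.68).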
